A study of Mus musculus with 14 samples.

Results

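Histone genes matching the symbols H1f, H2ac, H2bc, H3c or H4c followed by digits, or the older names Hist1h to Hist4h, were taken from the RefSeq protein-coding genes of the mouse build mm10, and 71 of 21887 genes matched. Current symbols gave 67 of them, and an older name alone gave H4f16, H2bu2, H2aw and H4bc24. They comprised 10 genes for the linker histone H1 and, for the core histones, 18 for H2A, 18 for H2B, 12 for H3 and 13 for H4. The set is known as the replication-dependent histone genes, and 64 of the 71 are of that kind. The symbol rule also took in the replication-independent linker genes H1f0, H1f7, H1f8 and H1f10, and the testis variants H1f6, H2ac1 and H2bc1. Chromosome 13 held 54 of the genes in a pair of clusters, 23 from H2bc13 to H2bc11 (chr13:21715711-22043658) and 31 from H4c8 to H2ac1 (chr13:23531044-23934913). Chromosome 3 held 10 from H2ac21 to H2bc18 (chr3:96219885-96270192), chromosome 11 held H2bu2 and H2aw, and 5 stood alone.

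The islands of enriched ChIP-seq signal over these genes and 2 kb on either side were set against each other in Lin- bone marrow progenitors (HSPCs, blood stem and progenitor cells left after cells with lineage markers are removed) from C57BL/6 mice. The KO group had the genotype UTX KO and the other group UTX WT, where Utx is the gene also named Kdm6a, and no further allele or agent was labelled. H3K27ac and H3K27me3 were each measured in 2 KO and 2 WT libraries, UTX was precipitated in 2 WT libraries, and 1 IgG library, named after a BCOR experiment, gave the background. The IgG control of the UTX precipitation was not used here. The labels used here give no age, no deleter strain and no statement that numbered libraries came from separate animals, so p-values measure the spread between these libraries, which may be technical.

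Dividing cells make most of their histones in S phase from short genes without introns that lie together in clusters. Their messages end in a stem-loop bound by SLBP instead of a poly(A) tail, and the coactivator NPAT, a target of cyclin E with CDK2, gathers with the processing machinery at the clusters in a nuclear structure called the histone locus body. UTX removes methyl groups from H3K27 and is also found with the MLL3 and MLL4 methyltransferases at active promoters and enhancers. H3K27ac marks active promoters and enhancers, and H3K27me3 marks genes held silent by Polycomb.

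The sequences before the starts of the genes that the results turn on are shown first. They come from RefSeq promoters of GRCm38.p6, the assembly of mm10, which held 66 of the 71 genes, and they end at the base before the annotated start. Capitals mark matches, on either strand, to 5 short motifs known from histone promoters: CCAAT (NF-Y), TATAAA (the TATA box), ATTTGCAT (the octamer of H2A and H2B genes), AAACACA (the H1 box) and GGTCCG (part of the H4 element bound by HINFP). The first is the stretch between a head-to-head pair, H2ac8 and H2bc8 (chr13:23571221-23571399, plus strand), in a region that was lower in KO. H4c12 (chr13:21750554-21750803, minus strand) and H1f2 (chr13:23738557-23738806, plus strand) lie in other regions that were lower in KO. H1f0 (chr15:79027962-79028211, plus strand) was higher in KO, and H1f10 (chr6:87981483-87981732, minus strand) lost its H3K27ac islands. H4c17 (chr13:21811496-21811745, plus strand) and H4c18 (chr13:21832198-21832447, minus strand) are near copies, of which only H4c18 had an island within 2 kb.
H2ac8_H2bc8: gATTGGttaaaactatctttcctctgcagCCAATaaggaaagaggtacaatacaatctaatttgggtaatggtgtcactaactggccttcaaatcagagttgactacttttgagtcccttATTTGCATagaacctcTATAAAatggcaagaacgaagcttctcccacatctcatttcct
H4c12: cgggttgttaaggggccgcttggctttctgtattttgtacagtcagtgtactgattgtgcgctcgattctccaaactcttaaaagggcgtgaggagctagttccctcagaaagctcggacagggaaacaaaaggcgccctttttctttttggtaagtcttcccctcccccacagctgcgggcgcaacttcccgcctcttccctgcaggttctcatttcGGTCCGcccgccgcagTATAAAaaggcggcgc
H1f2: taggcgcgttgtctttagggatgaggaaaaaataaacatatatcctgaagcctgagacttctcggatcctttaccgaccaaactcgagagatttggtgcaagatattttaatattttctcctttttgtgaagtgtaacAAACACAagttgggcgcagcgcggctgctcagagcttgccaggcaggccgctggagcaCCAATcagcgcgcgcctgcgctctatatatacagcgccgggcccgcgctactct
H1f0: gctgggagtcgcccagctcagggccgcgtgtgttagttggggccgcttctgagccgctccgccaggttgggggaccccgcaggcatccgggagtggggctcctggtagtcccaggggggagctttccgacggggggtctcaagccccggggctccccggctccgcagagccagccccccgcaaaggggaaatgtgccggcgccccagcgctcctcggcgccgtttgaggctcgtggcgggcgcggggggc
H1f10: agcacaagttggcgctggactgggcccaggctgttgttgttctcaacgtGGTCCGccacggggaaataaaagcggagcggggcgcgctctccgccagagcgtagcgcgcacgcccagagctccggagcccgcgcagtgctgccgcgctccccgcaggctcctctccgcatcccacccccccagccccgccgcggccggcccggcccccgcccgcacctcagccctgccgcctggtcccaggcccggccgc
H4c17: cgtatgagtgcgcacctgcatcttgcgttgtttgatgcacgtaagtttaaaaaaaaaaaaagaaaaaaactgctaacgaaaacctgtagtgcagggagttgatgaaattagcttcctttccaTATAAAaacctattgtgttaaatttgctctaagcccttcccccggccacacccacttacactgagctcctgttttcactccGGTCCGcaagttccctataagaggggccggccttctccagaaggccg
H4c18: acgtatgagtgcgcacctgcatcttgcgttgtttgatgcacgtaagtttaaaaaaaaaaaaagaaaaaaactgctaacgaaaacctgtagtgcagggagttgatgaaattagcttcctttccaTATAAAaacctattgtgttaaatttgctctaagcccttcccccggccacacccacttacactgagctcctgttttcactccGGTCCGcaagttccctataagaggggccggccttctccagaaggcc

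Among the 59 replication-dependent genes with a promoter in the table, CCAAT stood in 81.4% of the 250-base windows, against 36.3% of 17492 protein-coding promoters. All 5 H1, all 17 H2A and all 15 H2B windows held it, as did 8 of 10 H3 windows. Of the H4 windows only 3 of 12 held CCAAT, a share below that of all promoters. TATAAA stood in 45.8% of the 59 windows, against 12.4% of all promoters. The other motifs followed the histone they are known from. ATTTGCAT stood in 6 of 17 H2A and 5 of 15 H2B windows and in no H1, H3 or H4 window (all promoters, 1.61%), AAACACA in 4 of 5 H1 windows (all promoters, 5.44%), and GGTCCG in 9 of 12 H4 windows (all promoters, 8.50%). H1f0 held none of the 5 motifs and H1f10 only GGTCCG. A match is a description of letters and not a binding site. Among the 66 genes with a promoter in the table, in 10 places an H2A and an H2B gene lay head to head, with 163 to 280 bases between their starts.

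H3K27ac lay over nearly all of the histone genes in both genotypes. An island met 62 and 61 of the 71 genes in KO replicates 1 and 2, and 63 in each WT library. 61 genes were marked in all 4 libraries (85.9%), against 56.4% of all protein-coding genes. The share in both WT libraries was 59.0% over all genes. Neighbours shared islands, so these genes rested on 24 and 23 separate islands in KO and 24 and 26 in WT. The islands were wide, with a median of 9.5 and 8.8 kb in KO and 9.2 and 8.9 kb in WT, against 4.2 kb in each KO library and 3.8 kb in each WT library over all islands. Together they held 52491 and 43969 reads in KO and 37757 and 66058 reads in WT. Over the cluster from H4c8 to H2ac1, H3K27ac islands covered 87.5% of the bases of the genes of at most 5 kb in every library, which leaves out 2 longer annotated genes, against 37.6% and 34.4% of the remaining bases in KO and 38.4% and 41.8% in WT. With all annotated genes counted they covered 61.3% and 54.8% of gene bases in KO and 68.8% and 76.4% in WT. The contrast was smaller in the other clusters. In the smaller chromosome 13 cluster the short genes were covered to 45.5% in every library, and the remaining bases to 30.0% and 29.6% in KO and 27.9% and 32.1% in WT. The short genes left uncovered there were H2bc23, H2ac23, H4c17, H4c18, H2ac24 and H4bc24, and every other short gene was covered in full. On chromosome 3 the genes were covered to 70.5%, and the bases between them to 59.2% and 66.9% in KO and to 74.6% and 78.8% in WT. The uncovered gene bases all lay in H3c15, H2ac19, H2ac18 and H3c14, at the gaps described below.

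**Figure D1:**
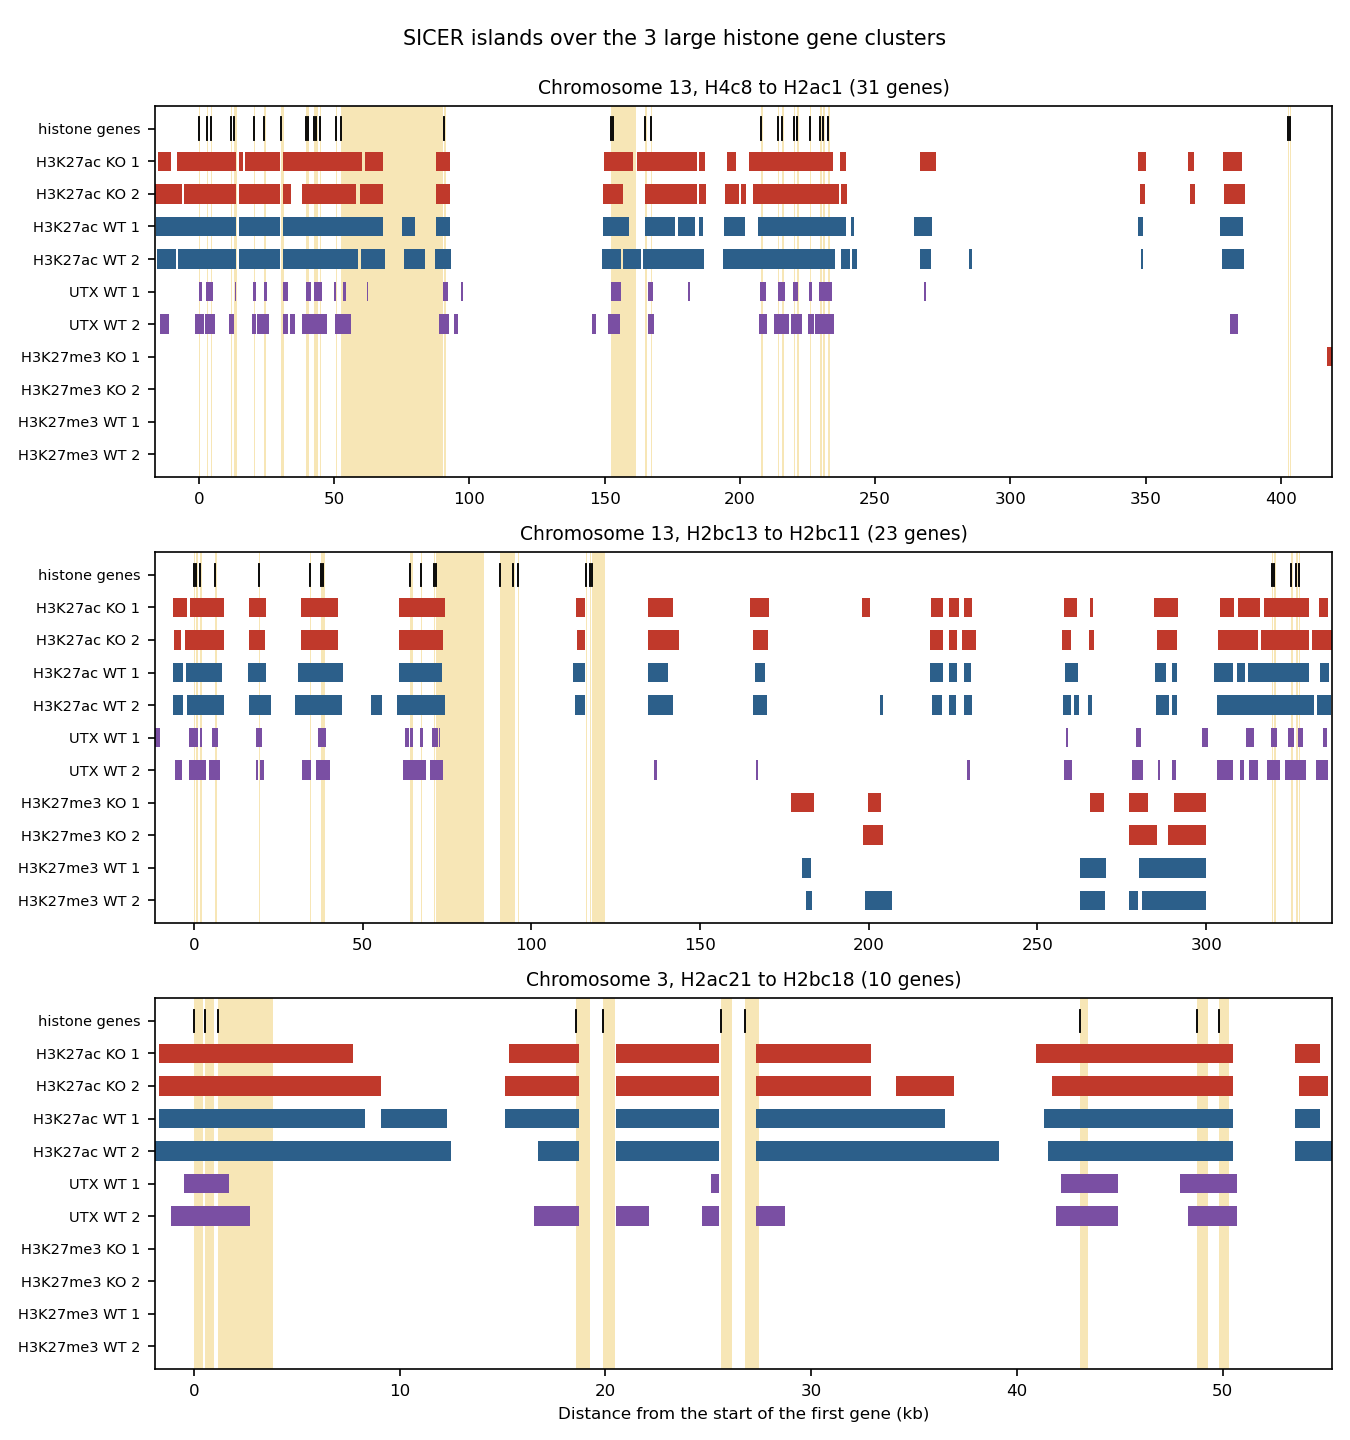
Islands of each library over the 3 large clusters, by distance in kb from the start of the first gene, with KO rows in red above WT rows in blue, UTX (WT only) in violet, gene starts as black ticks and gene spans shaded. H3K27ac islands can span several genes, though in the smaller chromosome 13 cluster 5 of the 15 to 18 islands of each library meet a histone gene. UTX islands are narrower, and 12 of 17 and 9 of 20 there do so, while no H3K27me3 island meets one in the 3 clusters.

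8 genes had no H3K27ac island in any library. H2bc1 and H2ac1, testis variants at the far end of the larger cluster, and H1f7 and H1f8, linker histones of the male and the female germ line, were among them. The other 4, H2bc23, H2ac23, H4c17 and H4bc24, lie in a stretch of 38.0 kb (chr13:21790201-21828200) and one of 18.6 kb (chr13:21831601-21850200) in which no library of any kind had an island. Their promoters are near copies of others. The 300-base windows of H2bc23 and H4bc24 are identical, and those of H4c17 and H4c18, printed above, agree at 99.7% of 299 bases. H4c18 and H2ac24 met only a weak island within 2 kb that lay outside both genes.

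A similar gap touched 4 genes on chromosome 3. Islands of all 4 H3K27ac libraries stopped and began again at the same bases around chr3:96238601-96240400, which holds H2ac19 and most of H3c15, and around chr3:96245401-96247200, which holds H2ac18 and most of H3c14. H3c15 and H3c14 agree at 99.6% of 285 promoter bases and H2ac19 and H2ac18 at 95.8% of 260. In the larger chromosome 13 cluster islands of all 4 H3K27ac libraries also stopped at chr13:23544600 and began again at chr13:23545801, over part of H3c7. They likewise stopped at chr13:23561000 and began again at chr13:23562201, over most of H3c6. How reads that match several places were treated is not given in the sources used here, and its part in these gaps was not tested.

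By histone, all 12 H3 genes and 12 of 13 H4 genes were marked by H3K27ac in all 4 libraries, as were 16 of 18 for H2A, 14 of 18 for H2B and 7 of 10 for H1. Levels are given in RPM, the reads of the islands scaled to the same total of island reads in every library, per kb covered by islands. The highest in the larger chromosome 13 cluster stood at H1f4, an S-phase linker histone, with 27.4 and 30.7 in KO and 25.6 and 21.1 in WT. The lowest marked gene there was the testis variant H1f6, with 6.14 and 7.32 in KO and 8.76 and 6.11 in WT. H4c3 had the same values but for 7.30 in place of 6.11 in WT replicate 2. H1f5, H3c11, H2ac22 and H2bc22 shared the strongest island of the smaller cluster, with 17.6 and 21.4 in KO and 21.4 and 20.7 in WT, and H4c18 and H2ac24 the weakest, with 2.42 and 3.07 in KO and 2.90 and 3.30 in WT. On chromosome 3 the strongest was shared by H4c14, H3c13 and H2bc18, at 21.7 and 26.0 in KO and 22.1 and 22.8 in WT, and H2ac18 and H3c14 had the lowest level, at 14.1 and 14.8 in KO and 10.8 and 10.3 in WT.

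UTX itself sat at most of the histone genes in WT. Islands of both UTX libraries, with none in IgG, met 56 of 71 genes (78.9%), against 37.7% of all genes and 19.0% of genes of at most 5 kb. Among the 63 histone genes with H3K27ac in both WT libraries it was found at 88.9%, against 62.6% of all genes with H3K27ac there and 59.9% of those of at most 5 kb. The IgG library had no island at any of the 71, and met 4.32% of all genes. Since neighbours share islands, the 57 and 60 genes met in UTX libraries 1 and 2 rested on 40 and 37 islands. By cluster UTX was found at 29 of 31 and 17 of 23 genes on chromosome 13 and at 8 of 10 on chromosome 3. None of the 8 genes without H3K27ac had UTX.

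UTX islands were narrow beside those of H3K27ac, with a median width of 1.7 and 3.2 kb at the histone genes. In the cluster from H4c8 to H2ac1 they covered 78.7% and 79.5% of the bases of the genes of at most 5 kb and 6.44% and 14.8% of the remaining bases. The smaller cluster had 40.6% and 43.7% of such gene bases covered and 5.91% and 15.97% of the rest, and chromosome 3 had 38.2% and 55.3% covered and 11.4% and 23.7% of the rest. 44 of 66 annotated starts (66.7%) lay inside an island of both UTX libraries, against 31.3% of 17492 gene starts. At the 56 genes the median level was 49.0 and 41.7 RPM per kb in libraries 1 and 2, and at 8204 other genes with UTX it was 48.7 and 31.8. Thus the level lay near the median of other genes in library 1 and above it in library 2, where the upper quartile of other genes was 36.6. H2bc9 and H3c7 had the highest value in library 1 (91.8, and 32.4 in library 2), and H1f2 the highest in library 2 (57.6, and 45.9 in library 1). 5 genes had UTX in 1 library only. They were H1f10 in library 1, and H2bu2, H2aw, H3c15 and H2ac19 in library 2.

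H3K27me3 was missing from the clusters. None of the 64 genes on chromosomes 13 and 3 met an H3K27me3 island in any KO or WT library, while 22.4% of all genes did in all 4 and 27.2% in both WT libraries. The mark was present nearby, as a region over Prss16 between 2 groups of genes of the smaller cluster held 418 and 482 reads in KO and 448 and 571 in WT. Only 4 histone genes met the mark at all. H1f0, H1f10 and H2bu2 did so in all 4 libraries and H2aw in WT replicate 2 alone, so no gene lost or gained H3K27me3 in the sense of an island in both libraries of one genotype and neither of the other (all genes, 1.95% lost and 0.429% gained).

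None of the 3 H3K27me3 regions at histone genes passed edgeR's quasi-likelihood test (regions with an island in all 4 libraries, adjusted over 6771 regions). 1 of those 6771 passed (0.0148%, or 0.0198% of the regions that meet a gene, lower in KO), with 517 at an unadjusted p under 0.05 and 33 called by DESeq2, none of them at a histone gene. The region of H1f0 held 31.5 and 105 CPM (reads scaled to the library's tested regions and TMM factor) in KO and 95.0 and 140.2 in WT. The ranges overlapped, and the log2 fold change of KO over WT was -0.79 ± 0.501 (SE), adjusted p = 0.754. H1f10 had 102 and 125 CPM in KO and 83.1 and 107 in WT, a log2 change of 0.25 ± 0.315 (SE). The region at H2bu2 and H2aw had 122 and 52.3 CPM in KO and 69.7 and 144 in WT, a log2 change of -0.29 ± 0.466 (SE). At this depth 17% of simulated 2-fold changes in H3K27me3 were recovered, so differences of that size were mostly not detectable.

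H3K27ac was lower in KO over parts of the chromosome 13 clusters and at H2aw, with values of 0.709 to 0.816 of the WT level in the 6 regions that passed the test as lower, and higher at H1f0. The 71 genes met 23 merged regions, of which 20 had an island in every library and were tested with the rest of the genome, 18820 regions in all. 6 of the 20 were lower in KO and 1 was higher. Over all tested regions 14.0% were lower and 12.0% higher (26.0% in either direction), and over those that meet a gene 15.0% were lower and 12.3% higher (27.3% in either direction). These regions differ in size from the 20 histone regions, which had a median width of 12.9 kb. It was 7.0 kb over all tested regions and 7.4 kb over those that meet a gene. The part of width in these shares was not tested. The median log2 change of KO over WT was -0.24 at the histone regions, against -0.0002 over all regions. Of the 20, 17 were below 0, beside 50.0% of all tested regions and 51.1% of those that meet a gene. In 12 regions both KO libraries lay below both WT libraries, and in 1 above. The share of all tested regions without such overlap was not counted, so these 2 counts have no background. The regions were not set against others by a test.

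4 of the 6 lower regions lay in the cluster from H4c8 to H2ac1 and together met 24 of its 31 genes. Those of H4c8 to H3c7, H3c7 to H3c6 and H3c6 to H2bc6 are direct neighbours. Only the short gaps at H3c7 and H3c6 given above part them, though they were counted as separate regions. The region of H1f2, H3c3, H2bc3, H2ac4, H3c2, H4c2, H4c1, H3c1 and H1f1, which holds genes for all 5 histones, had 613 and 694 CPM in KO and 768 and 835 in WT. Both KO libraries were below both WT libraries, with a log2 change of -0.29 ± 0.0869 and an edgeR adjusted p of 0.0462. The 8-gene region from H3c6 to H2bc6, with the H2ac8 and H2bc8 promoter shown above, had 468 and 513 CPM in KO and 591 and 647 in WT. It did not overlap between genotypes either (log2 change -0.34 ± 0.0827 SE, edgeR adjusted p = 0.0251).

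The region of H3c7, H4c6, H1f3 and H3c6 had 159 and 176 CPM in KO and 205 and 236 in WT (log2 change -0.40 ± 0.0994, edgeR adjusted p = 0.0262). The region of H4c8, H2ac10, H3c8, H2bc9 and H3c7 had 404 and 447 CPM in KO and 506 and 538 in WT (log2 change -0.30 ± 0.0808, edgeR adjusted p = 0.0362). In both the KO values lay below the WT values without overlap. The same cluster held 2 tested regions that did not pass. At H1f4, the gene with the highest H3K27ac level per kb, KO libraries had 144 and 165 CPM and WT libraries 141 and 146 (log2 change 0.10 ± 0.0937, edgeR adjusted p = 0.459), and the genotypes overlapped. At H2ac6, H2bc4, H1f6 and H4c3 the values were 283 and 299 CPM in KO and 287 and 336 in WT (log2 change -0.10 ± 0.0945, edgeR adjusted p = 0.480). Within the long annotated span of H2bc6 a further region (chr13:23606001-23614800) had islands in WT alone, with 121 and 272 reads, and none in KO.

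In the smaller chromosome 13 cluster all 6 tested regions were below 0 and 1 passed. The region of H4c12, H2ac15 and H2bc15 had 138 and 163 CPM in KO and 185 and 218 in WT (log2 change -0.42 ± 0.117, edgeR adjusted p = 0.0371), with no overlap. The other 5 had log2 changes of -0.15 to -0.72. The largest was at the weak island beside H4c18 and H2ac24, with 6.62 and 6.96 CPM in KO and 10.8 and 11.5 in WT (edgeR adjusted p = 0.0654). The regions of H1f5 and its neighbours (-0.27, adjusted p = 0.0853) and of H2ac12 to H2bc11 (-0.29, adjusted p = 0.0765) also lay below WT in both KO libraries without passing. Of 9 tested regions between the first and last gene of the chromosome 13 clusters that meet no histone gene, none was lower and 1 was higher, at Slc17a1, with a median log2 change of 0.13. Their difference from the histone regions was not tested.

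On chromosome 3 none of the 5 regions passed. H4c14, H3c13 and H2bc18 had 219 and 236 CPM in KO and 223 and 238 in WT, a log2 change of -0.02 ± 0.0804. The largest change was at H2ac18 and H3c14, with 40.5 and 55.6 CPM in KO and 63.2 and 83.9 in WT (log2 change -0.62 ± 0.194, edgeR adjusted p = 0.0544). The region between the gaps, which meets H3c15, H2ac19, H2ac18 and H3c14, had a log2 change of 0.06 ± 0.0917. H4f16, an H4 gene alone on chromosome 6, had 161 and 172 CPM in KO and 169 and 183 in WT (-0.08 ± 0.0838). On chromosome 11 the region of H2aw, an H2A gene, passed, with 124 and 98.6 CPM in KO and 155 and 159 in WT (log2 change -0.50 ± 0.117, edgeR adjusted p = 0.0219). Its neighbour H2bu2, an H2B gene, met an island of 128 reads in KO replicate 1, none in KO replicate 2, and islands of 105 and 200 reads in WT.

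**Figure D2:**
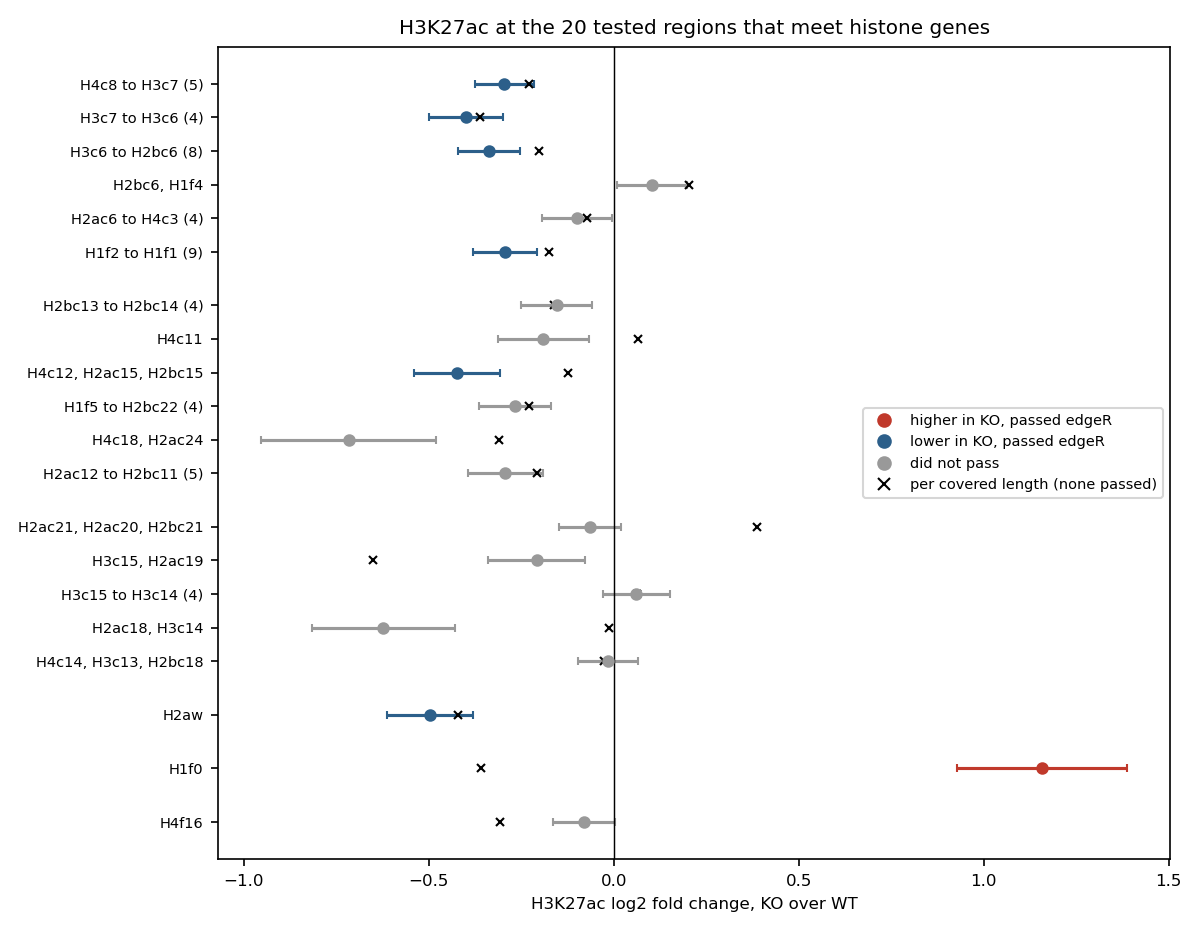
H3K27ac log2 fold change of KO over WT at the 20 tested regions, named by their genes (number of genes in brackets) and grouped by cluster, as points with SE bars, with crosses for the fit on reads per covered length. 17 points lie below 0, 6 of them passed as lower, and H1f0 passed as higher but is at -0.36 per covered length.

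**Figure D3:**
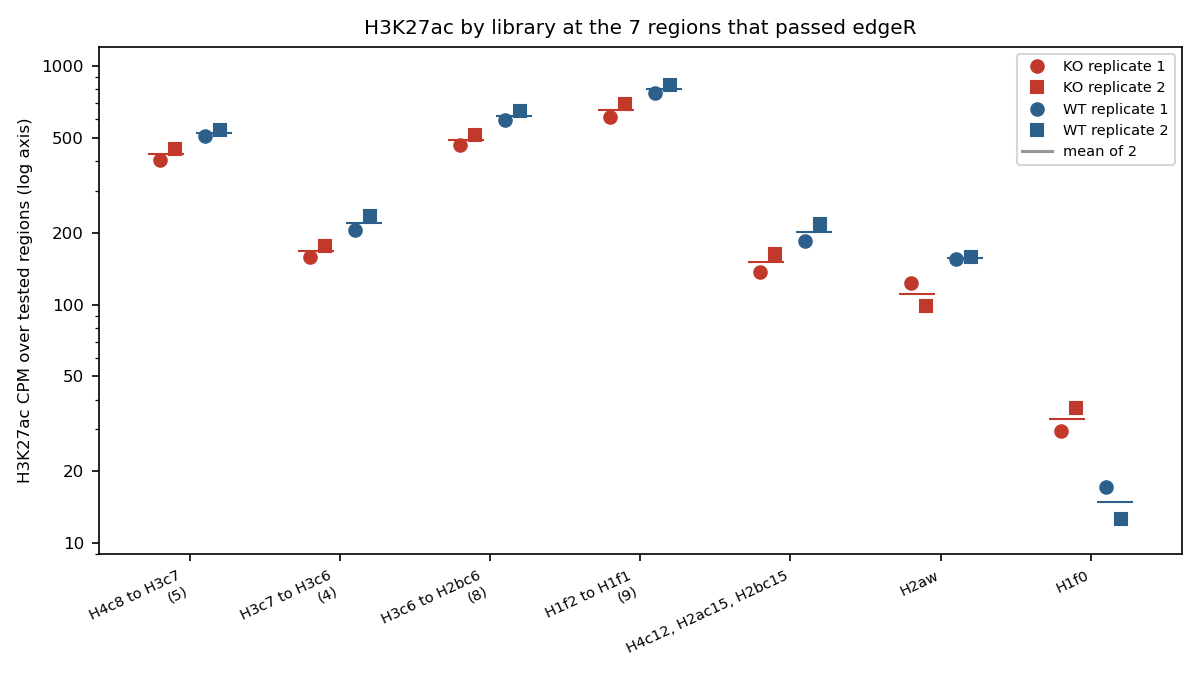
H3K27ac CPM on a log axis in each KO (red, left) and WT (blue, right) library at the 7 regions that passed edgeR, with lines at the mean of 2 libraries. KO and WT libraries do not overlap at any of the 7, KO is lower at 6, and at H1f0 KO has 29.5 and 36.8 against 17.2 and 12.7 in WT. The 7 were chosen by the test on these same libraries, so their separation is not further evidence.

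Summed over all islands of a cluster, H3K27ac was lower in both KO libraries than in both WT libraries on chromosome 13, where 2 libraries against 2 allow no exact permutation p below 0.333. The larger chromosome 13 cluster had 1905 and 2129 RPM in KO and 2224 and 2317 in WT (log2 ratio -0.17, exact p = 0.333). The smaller had 797 and 927 in KO and 947 and 1117 in WT (-0.26, exact p = 0.333). The chromosome 3 cluster had 546 and 599 in KO and 549 and 573 in WT (0.03, exact p = 1). The islands of the chromosome 13 clusters also covered less sequence in KO, 140.6 and 129.6 kb against 145.0 and 164.4 kb in WT for the larger one and 55.8 and 56.6 kb against 63.4 and 77.8 kb in WT for the smaller. Per covered kb the log2 ratios were 0.027 for the larger and 0.066 for the smaller.

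The calls depended on single libraries and on scaling. None of the 7 passed without WT replicate 2, 3 regions passed without WT replicate 1 and 2 without KO replicate 1, and none passed when reads were fitted per covered length, where the median of the 20 was -0.19 against -0.07 over all regions. Scaling by total island reads in place of TMM moved the median of all regions up by 0.12 and that of the histone regions to -0.12, and left H2aw lower and H1f0 higher. When regions with islands in at least 2 libraries were tested, H1f0 alone of the 7 still passed, and the 6 lower regions had edgeR adjusted p of 0.0589 to 0.114. The regions of H2ac21 (0.05), H4c14 (0.10), H4f16 (0.04) and H2ac6 (0.02) had values above 0 under total island reads without TMM. With islands in at least 2 libraries all of them stayed below 0.

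Among the linker genes that are not tied to replication, H1f0 was higher in KO and H1f10 lost its islands in H3K27ac. H1f0, the linker histone of resting and differentiating cells, carried H3K27ac, H3K27me3 and UTX together. Its H3K27ac island held 414 and 397 reads over 4.8 and 4.4 kb in KO and 146 and 167 reads over 1.8 and 1.4 kb in WT. In CPM this was 29.5 and 36.8 in KO and 17.2 and 12.7 in WT, with no overlap, a log2 change of 1.16 ± 0.229 and an edgeR adjusted p of 0.0112. The island was wider rather than denser in KO, since per covered length the change was -0.36 (adjusted p = 0.492, with 0.000458 to 0.492 over the alternatives). The call also ended without KO replicate 2, at 1.01 (adjusted p = 0.0505), and without WT replicate 2, at 0.95 (adjusted p = 0.0657). H3K27me3 covered 2.8 and 8.0 kb at H1f0 in KO and 8.2 and 8.8 kb in WT. UTX libraries 1 and 2 held 78 and 125 reads there.

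H1f10, a linker histone with a polyadenylated message, was the only histone gene to lose H3K27ac and none gained it (all genes, 1.42% lost and 1.08% gained). A loss at 1 of 71 genes is near the 1.42% over all genes. No island met H1f10 in either KO library, and the WT libraries had islands of 46 and 57 reads over 1.2 kb each. The smallest H3K27ac island of any library held 18 to 32 reads, so counts of this size lie near the lower end of what the files list. The same gene kept its H3K27me3 island in every library, with 198 and 255 reads in KO and 167 and 205 in WT. UTX was found in library 1 alone, with 31 reads.

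**Figure D4:**
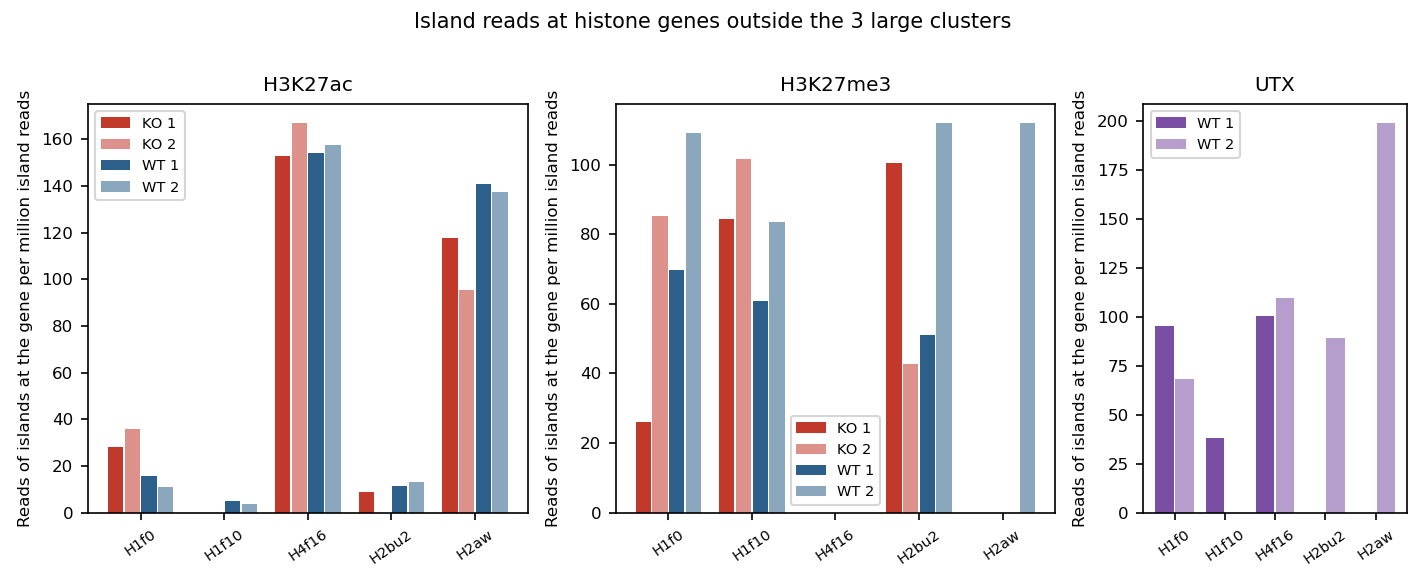
Reads of the islands at 5 histone genes outside the large clusters, in RPM, as bars from 0 for KO (red) left of WT (blue), with UTX measured in WT only (violet). H1f0 has more H3K27ac in KO, H1f10 has H3K27ac bars in WT only, and H4f16 has no H3K27me3.

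The genes that regulate and process histone messages were set beside the clusters. Of 24 such genes, all with tested H3K27ac regions, 7 were lower in KO and none higher, where 15.0% of all tested regions at genes were lower and 12.3% higher, with a median log2 change of -0.15 against -0.0002 over all regions. Those lower encode the cyclins that drive NPAT (Ccne1, -1.07 ± 0.0984, edgeR adjusted p = 0.000675, and Ccne2, -0.38), the repressor E2f4 (-0.84), the cap-binding partner Srrt (-0.81), the processing factors Sympk (-0.64) and Cpsf2 (-0.31), and Upf1 (-0.42), which takes part in the decay of histone messages. Ccne1 had 51.9 and 50.3 CPM in KO and 104 and 111 in WT. Npat, Slbp and Hinfp lie outside the rule for named genes and were chosen after their values were seen. Npat had 69.1 and 71.6 CPM in KO and 74.3 and 66.6 in WT (log2 change -0.0018, edgeR adjusted p = 0.992), Slbp a log2 change of -0.14 (adjusted p = 0.215) and Hinfp, the H4 regulator, -0.09 (adjusted p = 0.642). None of the 3 passed.

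Of 23 histone chaperones 5 were lower and none higher, with a median of -0.12, beside the same 15.0% and 12.3% at genes. They were Nap1l4 (-1.03), the FACT subunit Supt16 (-0.72), Npm1 (-0.47), Ncl (-0.34) and Set (-0.29). Of 8 tested genes for replication-independent variants 1 was lower, H2afx (-0.40), the variant phosphorylated at DNA breaks, with a median of -0.13, and 1 of 8 is near the 15.0% of regions at genes. Of 30 genes of DNA replication and S phase 12 were lower and 1 higher, with a median of -0.26, again beside 15.0% lower and 12.3% higher at genes. The largest were at Cdc6 (-1.04), which loads the MCM helicase, and at the nucleotide synthesis genes Tk1 (-0.99), Dut (-0.97), Rrm1 (-0.66) and Tyms (-0.65). Mcm6, Orc1, Mcm4, Ccna2, Mcm2, Orc6 and Rrm2 followed with -0.43 to -0.30, and Gins2 was higher (0.62). In these lists and in the marker lists below, each gene was counted at its tested region with the highest mean CPM. The 15.0% and 12.3% count every tested region at a gene, so the list shares and these shares are not fully alike. No tested H3K27me3 region of these lists passed. With 1 library left out, 3 to 5 regulators, 2 to 3 chaperones, 1 to 2 variants and 4 to 6 S phase genes passed, with the fewest S phase genes and regulators without WT replicate 2. No list gene passed per covered length, and Sympk, Upf1, Supt16, Ncl, Mcm4 and Rrm2 then had values above 0.

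**Figure D5:**
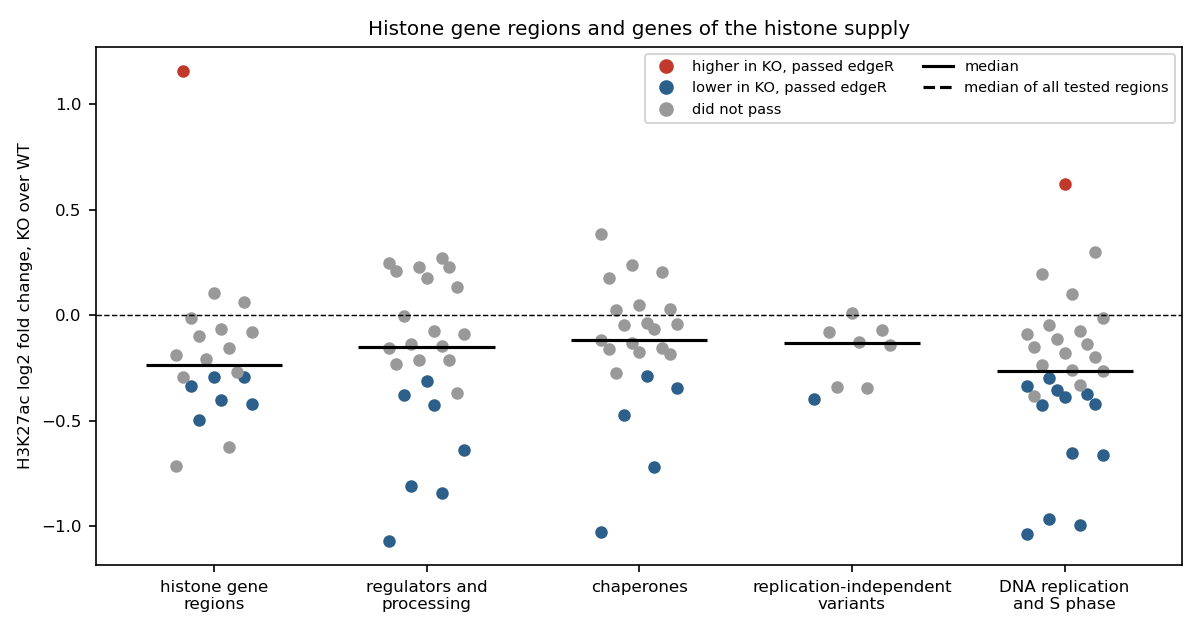
H3K27ac log2 fold change of KO over WT for the 20 histone gene regions and for the tested genes of 4 lists, in blue (lower in KO, passed), red (higher, passed) or grey (did not pass), with solid lines at the medians and a dashed line at the median of all regions. The medians lie at -0.24 for histone regions, -0.15 for regulators, -0.12 for chaperones, -0.13 for variants and -0.26 for S phase genes.

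H3K27ac at erythroid and B cell markers moved with genotype, where 14.0% of all tested regions were lower in KO and 12.0% higher. In the granulocyte and monocyte, T cell, and stromal and endothelial lists at most 1 tested region passed. All 8 stem and progenitor markers carried H3K27ac in every library, and 5 of them were lower in KO, while their summed H3K27ac overlapped between genotypes at 2860 and 2639 RPM in KO and 2741 and 2854 in WT. Summed H3K27ac over 7 erythroid genes was 285 and 320.0 RPM in KO and 846 and 1015 in WT, with 5 of 5 tested regions lower and Hba-a1 at 0 in both KO libraries. 6 B cell genes had 475 and 679 in KO and 181 and 163 in WT, with 5 of 5 tested regions higher. 6 granulocyte and monocyte genes had 274 and 237 in KO and 144 and 189 in WT, with Ly6g at 0 throughout and none of 3 tested regions passing. 6 T cell genes had 121 and 88.9 in KO and 67.2 and 54.9 in WT, with Cd3e, Cd4 and Cd8a at 0 throughout and 1 of 2 tested regions higher. In 6 stromal and endothelial genes the sum was 392.3 and 413 in KO and 262 and 261 in WT, with Col1a1, Col1a2, Cxcl12 and Lepr at 0 and 1 of 2 tested regions higher. In such bulk samples fewer cells of a type and less signal per cell cannot be told apart, and the part of these shifts in the histone results was not tested. Kdm6a itself carried H3K27ac in all 4 libraries (log2 change 0.16, not passing), which does not check the deletion.

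The libraries held 9330823 to 15256696 reads in islands for H3K27ac, 2347442 to 2743508 for H3K27me3, 816567 and 1834418 for UTX and 154029 for IgG, and counts in islands say nothing of reads outside them.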

How the data were processed

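ChIP-seq of H3K27ac and H3K27me3 (2 KO and 2 WT libraries each), UTX (2 WT) and IgG (1) was used, and 3 further samples, among them the IgG control of the UTX experiment, were not used here. The submitters' processing notes name SICER, an island caller, and the build mm10. The aligner, version, control and thresholds are not given in the sources used here. The deposited files list counts of reads for each island of each library, and reads outside islands have no count.

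Genes came from a RefSeq table of GRCm38.p6, and 4 of the 71 matched by older name only. A gene met an island by at least 1 bp within its span and 2 kb. Clusters were split at gaps above 300 kb. Overlapping islands of a mark formed 1 region, and the test took those present in every library. It was the quasi-likelihood test of edgeR 4.0.16 (R 4.3.3), two-sided, after TMM scaling, with Benjamini-Hochberg adjustment across the mark's regions and a threshold of 0.05. CPM are over tested regions, errors are SE from the F statistic. For list genes the region with the highest mean CPM was used. On simulated H3K27ac counts 82% of 100 regions changed 2-fold and all of 100 changed 4-fold were recovered, with 10 of 18620 unchanged regions called; for H3K27me3 this was 17%, 98% and 3 of 6571.

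Named were genes of regions that passed, genes that lost or gained islands, those with the largest changes, the replication-independent H1 genes, the strongest and weakest gene of each cluster, list genes that passed, and Kdm6a. Genes, lists and tests were chosen with earlier results of these data known. Alternatives were DESeq2 1.42.0, no TMM, regions in at least 2 libraries, a mean of at least 50 reads, reads per covered length, stricter islands, autosomes, other windows, a replicate block and leaving out each library.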

Additional observations from a re-analysis of the deposited data

How the results depend on the processing

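The 7 histone regions that passed in H3K27ac became 2 without TMM, 3 with islands in at least 2 libraries (H1f0 kept, the 6 lower ones lost, H1f10 and a WT-only region of H2bc6 newly tested), 0 per covered length and 0 to 6 when 1 library was left out (3 without WT replicate 1, 0 without WT replicate 2, 2 without KO replicate 1). DESeq2 gave 9, windows of 5 kb 8 and the other settings 5 to 10. Over all H3K27ac regions the 4889 calls (2258 higher, 2631 lower) became 3268 higher and 2069 lower without TMM, 8514 with islands in at least 2 libraries, 338 per covered length and 2649 to 3445 without 1 library. The 1 H3K27me3 call became 10 without TMM, 33 with DESeq2, 4 per covered length, 2 without the weakest islands, 0 with islands in at least 2 libraries, a mean of at least 50 reads or the replicate block, and 0 to 7 without 1 library. The cause was not tested.

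The lost or gained count for H3K27ac was 3 when islands had to cover 50% of the window (H2bu2 and H2bc6 lost, H1f0 gained), 0 without the replication-independent genes, and 1 to 2 without 1 library (H2bu2 joined without KO replicate 1). For H3K27me3 it was 0 to 1 without 1 library (H2aw lost without WT replicate 1). UTX met 19 genes when islands had to cover 50% of the window, and 50 to 60 otherwise. Cluster log2 ratios per covered kb were -0.16 on chromosome 11, 0.066 (smaller) and 0.027 (larger cluster) on chromosome 13 and 0.27 on chromosome 3, where TMM scaling gave -0.086. Per covered length H1f0 reversed to -0.36, Sympk to 0.22, Upf1 to 0.17, Supt16 to 0.074, Ncl to 0.094, Mcm4 to 0.13 and Rrm2 to 0.24.

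Same-numbered KO and WT libraries deviated together only at r = 0.0462 for H3K27ac and -0.0516 for H3K27me3. A correlation over regions from so few libraries does not settle whether the numbers pair them, and the labels do not say. The replicate block called 10 histone regions in H3K27ac and 5498 regions in all.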
